A study of Mus musculus with 24 samples.

Results

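The 78 genes described here are named for proteins of the mitochondrial ribosome. They were chosen by name: a protein-coding gene whose name starts with Mrpl or Mrps followed by a digit, with a normalised count of at least 10 in at least 6 of the 24 libraries. All 78 protein-coding genes with such a name passed that filter, and they are 78 of the 16578 genes tested, out of 57180 in the table. RNA from frozen frontal cortex punches of wild-type male C57BL/6 mice, 4 weeks old by the labels, was sequenced. Vehicle, sarcosine at 100 mg/kg, memantine at 20 mg/kg or both drugs at these doses were injected intraperitoneally each day for 28 days, with 6 libraries in each of the 4 groups, and all mice lived under a reversed light cycle. Sarcosine, or N-methylglycine, inhibits the glycine transporter GlyT1 and so raises glycine, a co-agonist of NMDA receptors, whose channel memantine blocks.

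Mitochondria carry their own ribosome, which translates the few mRNAs encoded by mitochondrial DNA into core subunits of the respiratory chain. Its ribosomal RNAs come from mitochondrial DNA, while every protein of it comes from a nuclear gene, is made in the cytosol and is imported. In the brain, where most ATP comes from oxidative phosphorylation, inherited defects of several of these proteins cause encephalopathy in humans. By the structure of the human particle, 51 of the 78 genes encode proteins of the large subunit, which forms the peptide bond, and 26 encode proteins of the small subunit, which reads the codon. By the nomenclature of ribosomal proteins 46 of them have a counterpart in bacterial ribosomes and 31 are classed as mitochondria-specific, Mrps18a and Mrps18b among the latter although their proteins resemble bacterial S18. A few names mislead: Mrps30 and Mrps18a encode large subunit proteins, and Mrps36 encodes a subunit of the 2-oxoglutarate dehydrogenase complex that is no part of the ribosome and is counted here only by its name.

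The promoters of these genes were searched for short motifs of 3 kinds of factor known to act on nuclear genes for mitochondrial proteins. In the window from 250 bases before to 50 bases after the annotated start, 69 of the 78 members had a RefSeq promoter sequence (build GRCm38.p6). The ETS core CCGGAAG, which the GA-binding protein recognises, was found on either strand in 25 of the 69 (36.2%), against 16.3% of the 11371 promoters of tested protein-coding genes and 9.12% of 27025 promoters in the table. The NRF1 motif GCGCATGCG or GCGCACGCG was found in 10 of 69 (14.5%), against 6.78% and 3.48%, and the YY1 motif AAGATGGCG in 8 of 69 (11.6%), against 2.84% and 1.49%. At least 1 of the 3 stood in 38 of the 69 promoters (55.1%), against 23.9% and 13.1%. NRF1 matches can overlap each other on the 2 strands because the motif is nearly palindromic, and no match of different motifs shared bases in a member. Most matches lay close to the start: 27 of 30 ETS matches, 11 of 16 NRF1 matches and 7 of 8 YY1 matches began within 100 bases before or 50 bases after it. These are matches of letters, not measured binding.

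**Figure D1:**
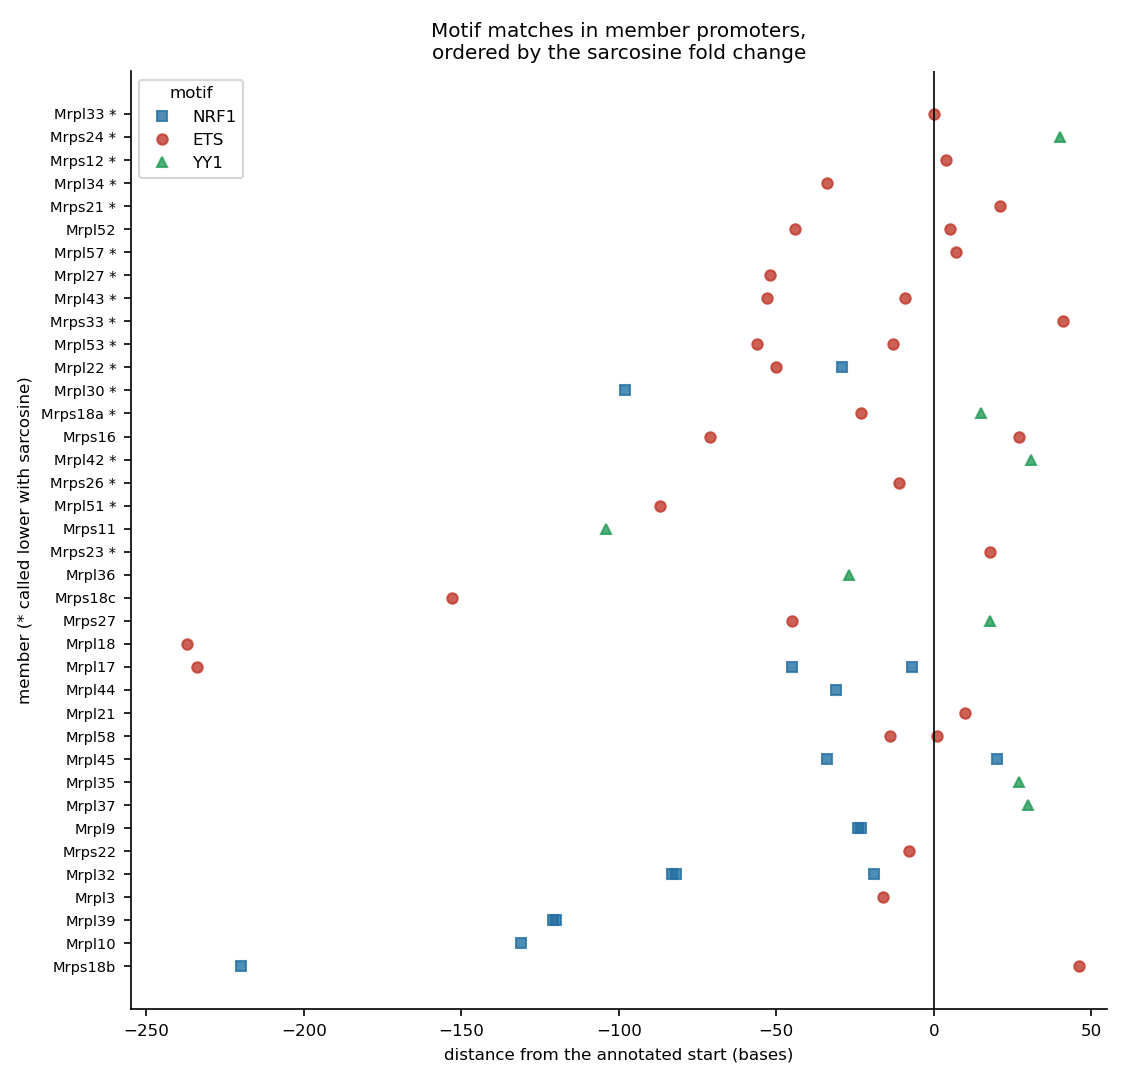
Position of each motif match in the 38 member promoters that hold one, as the distance in bases from the annotated start (x axis), with members on the y axis from the lowest sarcosine fold change at the top to the highest at the bottom. Squares are NRF1, circles ETS and triangles YY1 matches, and an asterisk marks members that were lower with sarcosine. ETS and YY1 matches crowd around the start, where 27 of 30 and 7 of 8 lie within 100 bases before or 50 after it.

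The promoters of 5 members that the results below turn on are shown 5′ to 3′, with motif matches in capitals. Mrps12, at chr7:28741772-28742071 (minus strand), has an ETS match just after the start, and Mrps18a, at chr17:46110754-46111053 (plus strand), has an ETS and a YY1 match. Mrpl30, at chr1:37890227-37890526 (plus strand), has an NRF1 match. Mrpl14, at chr17:45686099-45686398 (plus strand), has none of the 3, and Mrps18b, at chr17:35916391-35916690 (minus strand), has an NRF1 and an ETS match. The first 4 of these genes were lower with sarcosine and Mrps18b had the highest fold change of all members.
Mrps12: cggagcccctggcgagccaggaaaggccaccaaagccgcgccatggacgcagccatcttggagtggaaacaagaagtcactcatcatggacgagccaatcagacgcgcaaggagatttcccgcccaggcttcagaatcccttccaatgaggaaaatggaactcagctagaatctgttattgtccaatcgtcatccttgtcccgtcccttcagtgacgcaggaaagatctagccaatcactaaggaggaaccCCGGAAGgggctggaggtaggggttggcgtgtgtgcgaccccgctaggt
Mrps18a: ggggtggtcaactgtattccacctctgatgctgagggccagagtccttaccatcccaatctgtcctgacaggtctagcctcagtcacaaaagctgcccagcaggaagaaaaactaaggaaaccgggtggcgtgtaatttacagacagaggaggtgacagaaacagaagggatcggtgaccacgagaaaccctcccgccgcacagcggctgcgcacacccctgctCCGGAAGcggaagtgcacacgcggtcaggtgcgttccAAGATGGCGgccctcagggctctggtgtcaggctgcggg
Mrpl30: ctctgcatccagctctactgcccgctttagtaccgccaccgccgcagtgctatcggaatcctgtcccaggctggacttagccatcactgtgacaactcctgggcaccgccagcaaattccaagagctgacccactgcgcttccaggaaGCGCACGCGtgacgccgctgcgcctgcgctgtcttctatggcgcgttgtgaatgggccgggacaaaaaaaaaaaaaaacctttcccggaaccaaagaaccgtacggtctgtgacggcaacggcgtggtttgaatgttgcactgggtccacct
Mrpl14: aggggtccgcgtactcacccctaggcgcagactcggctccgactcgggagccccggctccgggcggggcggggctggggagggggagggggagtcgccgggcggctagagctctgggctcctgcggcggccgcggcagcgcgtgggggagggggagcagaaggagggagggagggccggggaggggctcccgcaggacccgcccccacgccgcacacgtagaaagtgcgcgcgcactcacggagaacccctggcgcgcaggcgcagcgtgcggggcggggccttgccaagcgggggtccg
Mrps18b: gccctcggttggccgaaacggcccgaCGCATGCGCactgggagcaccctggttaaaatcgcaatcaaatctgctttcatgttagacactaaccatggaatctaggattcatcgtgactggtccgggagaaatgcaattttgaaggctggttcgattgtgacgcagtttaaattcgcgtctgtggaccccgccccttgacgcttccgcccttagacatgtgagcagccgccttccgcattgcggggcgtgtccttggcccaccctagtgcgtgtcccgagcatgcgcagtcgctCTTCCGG

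The deposited values are normalised counts, and the whole reads behind them numbered 12678114 to 21844579 per library. Punches differed in the brain regions they held. The summed normalised count of 5 cortical excitatory neuron markers ranged from 16610.1 to 53646 in vehicle libraries, 5723 to 49698 in sarcosine libraries, 19097 to 44803 in memantine libraries and 22369 to 40350.2 in combination libraries, and all 5 markers were detected in every library. Markers of the choroid plexus summed to over 10000 in 1 library of each treated group, sarcosine replicate 1, memantine replicate 3 and combination replicate 1, against 39.4 to 635 with vehicle. Kcnj13 was at 0 in 2 libraries, Folr1 in 3 and Tbx21 of the olfactory bulb in 1. Levels also followed transcript length to a different degree in each library: for a transcript 10 times as long, the log2 deviation changed by -0.33 to -0.095 in vehicle libraries, by -0.090 to 0.29 after sarcosine, by -0.040 to 0.15 after memantine and by -0.27 to 0.24 after both.

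All members were expressed, and at levels per kilobase that differed by 13.9 times between the highest and the lowest. Per kilobase of the longest coding transcript, the mean over the 24 libraries ranged from 69.2 to 963 normalised counts, with a median of 275 against 126 for all tested protein-coding genes, and 65 of the 78 members lay above that second median. Large subunit members had a median of 316 and small subunit members one of 215. The highest levels per kilobase were those of Mrpl42 at 963, Mrps21 at 905 and Mrpl41 at 886, of which Mrps21 encodes the counterpart of bacterial S21 and the other 2 encode mitochondria-specific large subunit proteins. The lowest were those of Mrpl1 at 69.2, Mrpl17 at 70.6 and Mrpl47 at 72.0. They encode the protein of the L1 stalk, where the spent tRNA leaves, and proteins near the mouth of the exit tunnel. These ranks rest on the annotated length. Mrpl17, at 7300 bases, had a mean of 515 normalised counts, and Mrps21, at 488 bases, had one of 442. Which transcript was expressed was not tested. Across the 24 libraries the level per kilobase of Mrpl1 stayed between 60.9 and 77.8 and that of Mrpl42 between 807 and 1260. Both were picked as extremes by their mean over these same libraries. Library to library, the median coefficient of variation of the members was 9.47% in the vehicle group, 7.41% in the sarcosine group, 8.48% in the memantine group and 8.51% in the group given both. It was not set against that of other genes. The 6 processed pseudogenes with such names had mean normalised counts of at most 2.04.

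The effect of sarcosine alone was read against vehicle. mRNAs for both subunits of the mitochondrial ribosome were lower: 27 of the 78 members fell, where 4.62% of all genes tested fell, and 0 rose, where 4.72% of all genes rose (limma on log2 of the value plus 1, Benjamini-Hochberg adjusted p under 0.05 over all genes tested). At an unadjusted p under 0.05, 51 members were lower and 0 higher, where 11.1% and 11.2% of all genes were. On the reads recovered from the table, edgeR called 29 lower and 0 higher, where it called 4.89% and 4.85% of all genes. DESeq2 called 36 lower and 0 higher, where it called 7.32% and 7.59% of the genes it gave an adjusted p. The fold change, on the log2 scale throughout, was negative for 74 of the 78, with a median of -0.21 against -0.0032 for all genes. In bulk tissue, fewer cells that hold these mRNAs and less of the mRNA per cell cannot be told apart. All 6 sarcosine libraries lay below all 6 vehicle libraries for 15 members, where this held for 2.18% of all genes. These were Mrpl13, Mrpl14, Mrpl27, Mrpl28, Mrpl30, Mrpl34, Mrpl41 and Mrpl57 of the large subunit and Mrps12, Mrps21, Mrps23, Mrps24, Mrps25, Mrps26 and Mrps33 of the small.

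**Figure D2:**
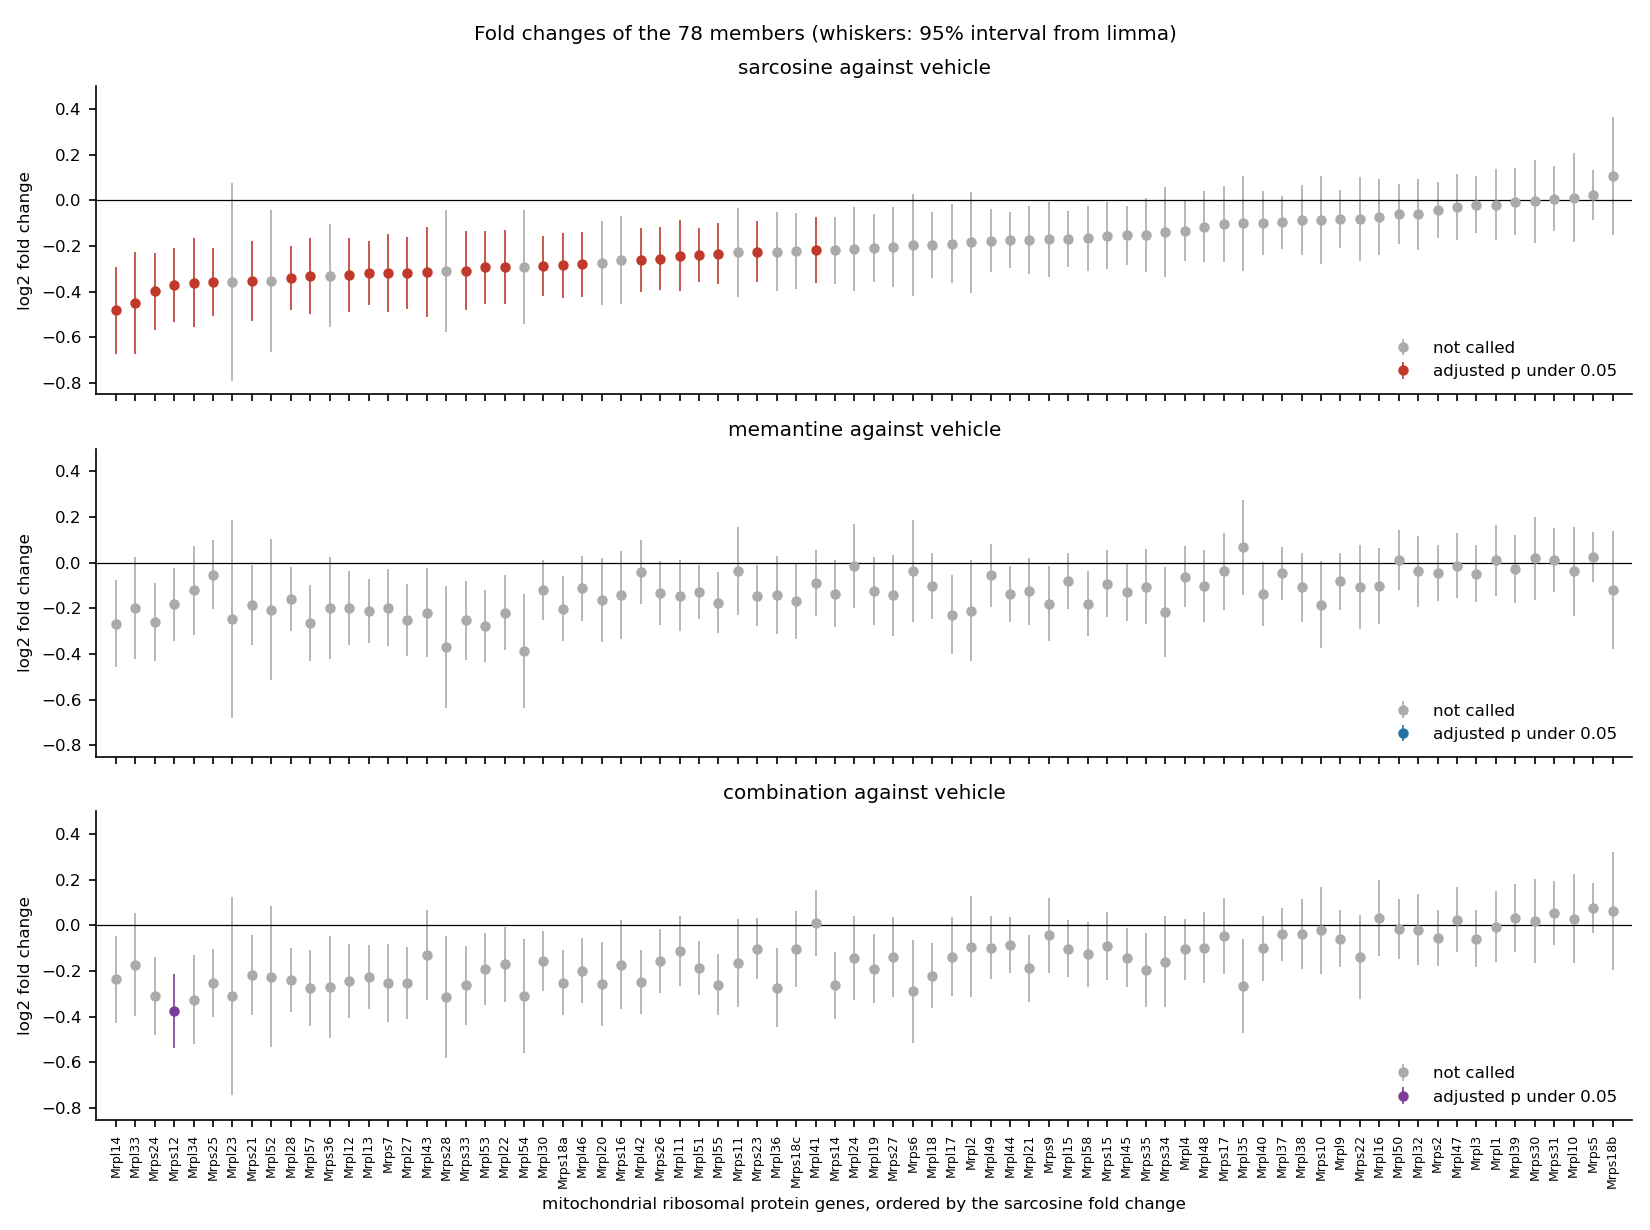
Log2 fold change of each of the 78 members against vehicle (y axis) for sarcosine, memantine and the combination, with members ordered by the sarcosine fold change on the x axis and whiskers for the 95% interval from limma. Coloured points passed an adjusted p of 0.05: 27 in the sarcosine panel, 0 in that of memantine and 1 in that of the combination, while nearly all points of the 3 panels lie below 0.

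Both subunits held members that fell. In the large subunit 19 of 51 members fell, with a median of -0.21, and in the small subunit 8 of 26, with a median of -0.21. Among all genes tested 4.62% fell. After the correction for length and GC content given below, 2 large and 2 small subunit members were lower, where 0.645% of all genes were. The medians of the large and small subunit members were then -0.088 and -0.11. Members shared with bacteria fell in 15 of 46 cases (median -0.22) and mitochondria-specific members in 12 of 31 (median -0.18). No test set these classes against each other.

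Among small subunit members, the smallest p was that of Mrps25, a mitochondria-specific protein. It lay at 519 to 650.3 normalised counts (median 577) with vehicle and 378 to 509 (median 449.6) with sarcosine. The 2 groups did not overlap, and the fold change was -0.36 (SE 0.073, adjusted p = 0.00376). Its call held in all 17 other settings tried, although 69.8% of its exon bases lie under exons of Nr2c2 on the opposite strand. Mrps24, the counterpart of bacterial S3, which lines the path of the incoming mRNA, lay at 424 to 559.9 normalised counts (median 497) with vehicle and 318 to 424 (median 382) with sarcosine. Every sarcosine library lay below every vehicle library, by the narrowest of margins at the highest one, with a fold change of -0.40 (SE 0.082, adjusted p = 0.00414). Mrps12, the counterpart of S12 at the decoding centre, lay at 652 to 862 normalised counts (median 694) with vehicle and 504 to 636 (median 537) with sarcosine, with vehicle replicate 1 well above the other vehicle libraries. The groups did not overlap, and the fold change was -0.37 (SE 0.078, adjusted p = 0.00472). Mrps21 lay at 440.2 to 650.3 normalised counts (median 485) with vehicle and 370.5 to 414 (median 387) with sarcosine, also without overlap, and its fold change was -0.36 (SE 0.085, adjusted p = 0.0096). The other small subunit members that fell were Mrps7, Mrps23, Mrps26 and Mrps33, with fold changes between -0.32 and -0.23.

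In the large subunit the lowest fold change of all members was that of Mrpl14, whose protein faces the small subunit and binds the anti-association factor MALSU1. Mrpl14 lay at 254 to 318 normalised counts (median 261) with vehicle and 177 to 206 (median 198) with sarcosine. The groups were separated by a clear gap, and the fold change was -0.48 (SE 0.092, adjusted p = 0.00265). Mrpl12, whose protein forms the flexible stalk that recruits elongation factors, lay at 844 to 1212 normalised counts (median 1009) with vehicle and 734 to 856 (median 803) with sarcosine. The lowest vehicle library, replicate 5, fell within the sarcosine range, and the fold change was -0.33 (SE 0.079, adjusted p = 0.00975). Mrpl28 lay at 664 to 896 normalised counts (median 721) with vehicle and 535 to 620.3 (median 596) with sarcosine, without overlap, with a fold change of -0.34 (SE 0.068, adjusted p = 0.00344). Mrpl13 lay at 504 to 614 normalised counts (median 539) with vehicle and 408 to 499 (median 428) with sarcosine, and even its highest sarcosine library, replicate 1, stayed below the lowest vehicle library. Its fold change was -0.32 (SE 0.068, adjusted p = 0.00506). Mrpl30 lay at 651 to 866 normalised counts (median 711) with vehicle and 529 to 642 (median 592) with sarcosine, without overlap, and changed by -0.29 (SE 0.064, adjusted p = 0.00656). The last 3 proteins have counterparts in the bacterial large subunit.

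Mrpl27, whose bacterial counterpart reaches into the peptidyl transferase centre, lay at 487 to 584 normalised counts (median 533) with vehicle and 413 to 455 (median 419) with sarcosine. The groups did not overlap, and the fold change was -0.32 (SE 0.076, adjusted p = 0.0101). Mrpl33 lay at 161 to 224 normalised counts (median 192) with vehicle and 118 to 175 (median 132) with sarcosine. Only the highest sarcosine library, replicate 4, reached into the vehicle range, and the fold change was -0.45 (SE 0.11, adjusted p = 0.0101). Mrpl51, a mitochondria-specific protein, lay at 625 to 847 normalised counts (median 734) with vehicle and 589 to 658 (median 622) with sarcosine, with some overlap and a smaller fold change of -0.24 (SE 0.057, adjusted p = 0.00979). The other large subunit members that fell were Mrpl11, Mrpl22, Mrpl34, Mrpl41, Mrpl42, Mrpl43, Mrpl46, Mrpl53, Mrpl55, Mrpl57 and Mrps18a, with fold changes between -0.36 and -0.22. Mrpl41 was nearest the threshold among them (adjusted p = 0.0484), and it passed in 7 of the 24 fits that left out 1 library each.

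**Figure D3:**
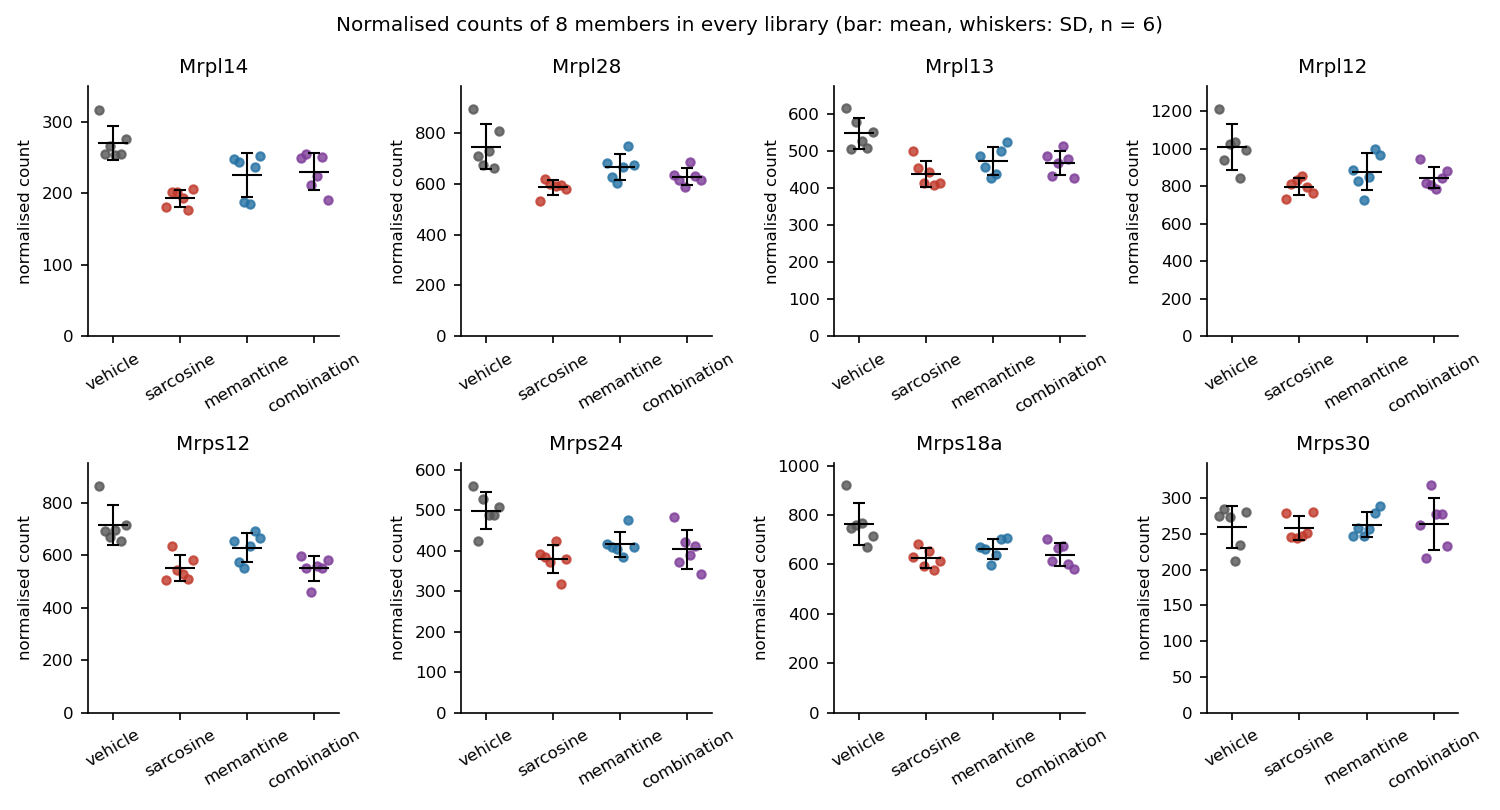
Normalised counts of 8 members (y axis, from 0) in each of the 24 libraries by group, with the mean as a bar and the SD as whiskers (n = 6). In Mrpl14, Mrpl28, Mrpl13, Mrps12 and Mrps24 every sarcosine library lies below every vehicle library, while the groups of Mrps30 overlap throughout.

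The members with the highest fold changes with sarcosine did not pass the test in either direction. Mrps18b lay at 95.2 to 121 normalised counts (median 101) with vehicle and 93.5 to 129 (median 113) with sarcosine, with a fold change of 0.10 (SE 0.13, adjusted p = 0.709) and a 95% interval of -0.15 to 0.36. Mrps5, the counterpart of bacterial S5, lay at 629.6 to 693 normalised counts (median 649) with vehicle and 618 to 729 (median 658) with sarcosine, with a fold change of 0.023 (SE 0.053, adjusted p = 0.872) and an interval of -0.088 to 0.13. For both genes the sarcosine and vehicle libraries overlapped throughout. Mrpl10, which anchors the Mrpl12 stalk, lay at 577 to 770.3 normalised counts (median 688) with vehicle and 576 to 798 (median 668) with sarcosine, with a fold change of 0.011 (SE 0.094, adjusted p = 0.971) and an interval of -0.18 to 0.21. Mrps31, a mitochondria-specific protein, had a fold change of 0.0068 (SE 0.068, adjusted p = 0.974) and an interval of -0.13 to 0.15. Mrps30 lay at 212 to 284 normalised counts (median 274) with vehicle and 245 to 281 (median 249) with sarcosine, with a fold change of -0.0052 (SE 0.089, adjusted p = 0.987) and an interval of -0.19 to 0.18. Mrpl39 had a fold change of -0.0062 (SE 0.072, adjusted p = 0.978) and an interval of -0.15 to 0.14. These 6 were picked for their high fold changes, and no test set them against the members that fell.

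Mrps18a, Mrps18b and Mrps18c descend from 1 bacterial S18 ancestor and sit in different places: Mrps18a in the large subunit, the other two in the small one. Mrps18a lay at 671 to 920.3 normalised counts (median 754) with vehicle and 576 to 685 (median 621) with sarcosine and fell by 0.28 on the log2 scale (SE 0.069, adjusted p = 0.0104). Mrps18c lay at 129.5 to 179.7 normalised counts (median 151) with vehicle and 116 to 146 (median 128) with sarcosine and did not pass, at -0.22 (SE 0.08, adjusted p = 0.0849). Mrps18b, described above, was the one of the 3 with a positive fold change. Per kilobase of coding transcript Mrps18a was the fifth highest of all members with 761 normalised counts. Mrpl58, a large subunit protein that releases stalled peptides, lay at 569 to 788 normalised counts (median 642) with vehicle and 551 to 653 (median 558) with sarcosine. It did not pass either, at -0.17 (SE 0.069, adjusted p = 0.14). Mrps36, which is not in the ribosome, lay at 141 to 224 normalised counts (median 174) with vehicle and 125 to 165 (median 142) with sarcosine, with all 6 sarcosine libraries below the vehicle mean and a fold change of -0.33 (SE 0.11, adjusted p = 0.0562).

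Per library, the median deviation of the members from their means over the 24 libraries was 0.0089 to 0.30 with vehicle and -0.14 to -0.00019 with sarcosine. Every sarcosine library thus lay below every vehicle library, the highest vehicle library being replicate 1 and the lowest replicate 5. Without vehicle replicate 1, 20 members fell and the median fold change was -0.19. The share of all genes that fell in that fit is not given here. The members' median was -0.087 to 0.027 with memantine and -0.11 to 0.064 with the combination, and both groups overlapped the low end of the vehicle range.

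**Figure D4:**
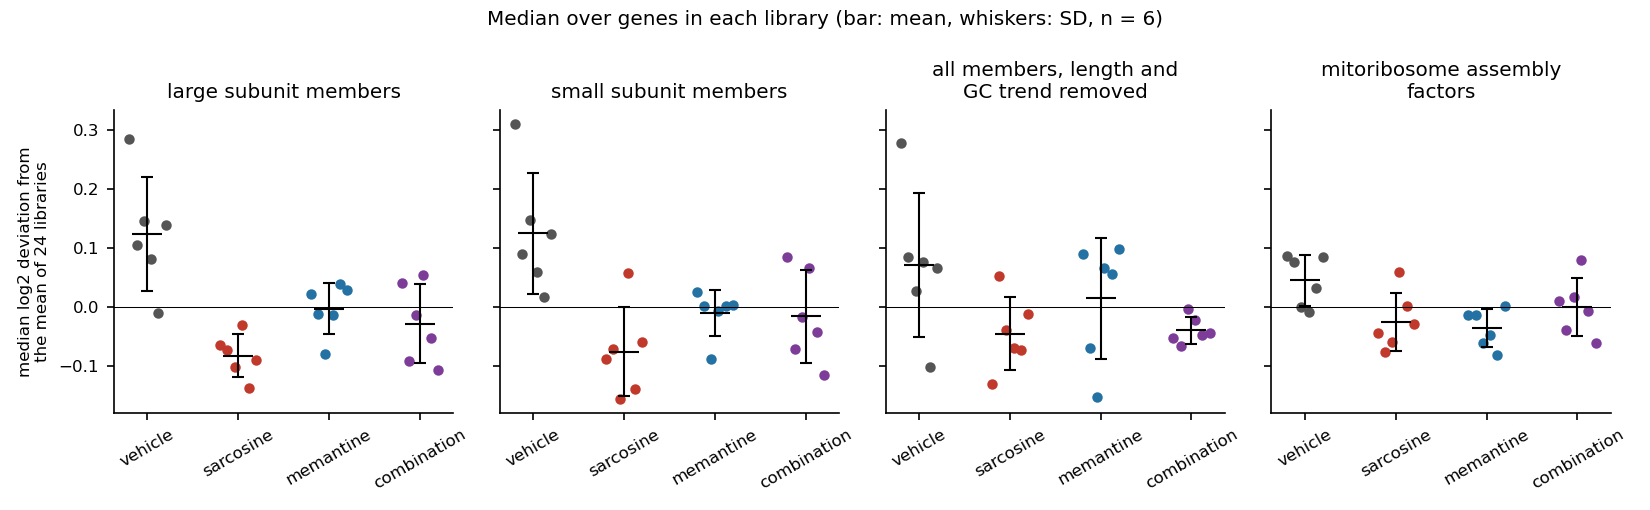
Median log2 deviation from the mean of the 24 libraries (y axis) in each library, for the 51 large subunit members, the 26 small subunit members, all 78 members after removal of a length and GC trend, and 25 mitoribosome assembly factors. Points are libraries, bars the mean and whiskers the SD (n = 6). In the large subunit panel all sarcosine points lie below all vehicle points, in the small subunit panel sarcosine replicate 4 at 0.057 lies above vehicle replicate 5 at 0.016, and after the removal of the trend the 4 groups overlap.

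Most members are short genes, and among other protein-coding genes too the share that fell with sarcosine differed by length. The members' longest coding transcripts have a median of 1327.5 bases, against 3224 for all tested protein-coding genes. Among transcripts under 1000 bases 13 of 24 members fell (54.2%), with a median of -0.29, and 37.3% of 604 other protein-coding genes fell, with a median of -0.30. From 1000 to under 2000 bases 9 of 29 members fell (31.0%, median -0.18), against 349 of 2686 other genes (median -0.17). From 2000 to under 4000 bases 3 of 16 members fell (18.8%, median -0.082), against 2.10% (median -0.019). Of the longest class, 4000 bases and over, 2 of 9 members fell (22.2%, median -0.17), against 0.480% of 5205 other genes (median 0.14). Under 2000 bases the medians of members and other genes lay close together. From 2000 to under 4000 bases the median of the members was the lower. In the longest class, of only 9 members, the medians lay on opposite sides of 0. Its 2 members that fell were Mrps25 and Mrps26, and 69.8% of the exon bases of Mrps25 lie under exons of Nr2c2. The classes rest on the annotated length. Which transcript was expressed was not tested, so a member may sit in a longer class than its expressed mRNA would. In every class a larger share of members than of other genes passed the test as lower. The classes matched genes for length only, and a share that passes depends also on level and spread. Whether these set the difference in shares was not tested. With memantine the medians of members and other genes were -0.20 and -0.20 in the shortest class and -0.10 and 0.10 in the longest. With both drugs they were -0.25 and -0.18 in the shortest and -0.14 and 0.074 in the longest.

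After a trend on length and GC content was removed from each library, 4 members were lower, where 0.645% of all genes were lower, and the median was -0.092. With the length of the coding transcript in its place 3 were lower, where 0.475% of genes were lower, and the median was -0.062. The 4 were Mrps25 at -0.52 (adjusted p = 0.00697), Mrpl13 at -0.47 (adjusted p = 0.00776), Mrpl33 at -0.43 (adjusted p = 0.0262) and Mrps26 at -0.32 (adjusted p = 0.0489). The first correction took the longest transcript of any kind. It has 6008 bases for Mrpl13 and 2741 for Mrpl33, against 1223 and 478 for the longest coding one. Mrps25 was called under both corrections. Across the 78 members the sarcosine fold change rose with log10 coding length at r = 0.462, a description over genes that share libraries. What sets the length trend of a library was not tested.

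**Figure D5:**
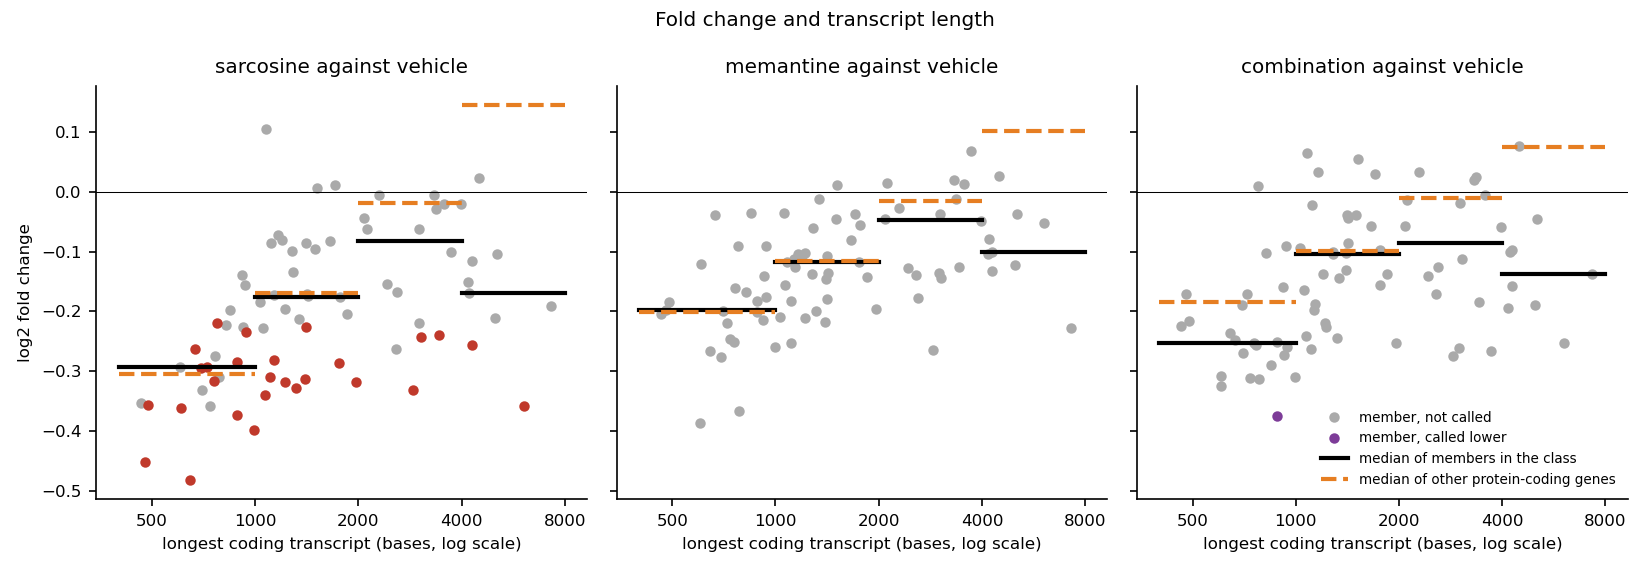
Log2 fold change against vehicle (y axis) and length of the longest coding transcript in bases (x axis, log scale) for the 78 members, in sarcosine, memantine and the combination. Coloured points were called lower, black lines are medians of the members and dashed lines medians of other protein-coding genes in 4 length classes. The line of other genes rises through all 4 classes, while that of the members turns down in the longest, where with sarcosine it stands at -0.17 against 0.14. Lengths are those of the annotation, and which transcript was expressed was not tested.

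Of 31 tested marker genes of regions and cell types, limma, edgeR and DESeq2 called 0 with sarcosine, and 0 had an unadjusted p under 0.05 with limma. With sarcosine 4 of 5 cortical excitatory markers had negative fold changes (median -0.33), and 5 of 5 striatal markers had positive fold changes (median 0.64) and their sum was 1762 to 18139 normalised counts, against 2060 to 5960.2 with vehicle. All 4 olfactory bulb markers were positive (median 0.48, sums of 183 to 5342 against 156 to 1522), and 5 of 5 oligodendrocyte markers were negative (median -0.49, sums of 28875 to 198347 against 50117 to 280240.0). Of the choroid plexus markers 3 of 4 tested were positive (median 0.45). Microglial markers were negative in 3 of 4 cases (median -0.21) and summed to 3459 to 4382 against 3749 to 5071. Astrocyte markers were negative in 2 of 4 (median -0.023) and summed to 13672 to 21850.1 against 12860.4 to 21363. With marker scores of cortical, striatal and olfactory neurons, oligodendrocytes and choroid plexus as covariates 6 members were lower, where 2.24% of all genes were, and the median was -0.22. Without the 3 libraries over 10000 in choroid plexus markers 25 members were lower, where 4.25% of all genes were, with a median of -0.21. Without the 6 libraries under 25000 in cortical excitatory markers 25 were lower, where 5.33% of all genes were, with a median of -0.22. Their part in the result was otherwise not tested.

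The comparison of memantine with vehicle asks what the channel blocker changes alone. No member passed: limma called 0 of 78, where 0.0121% of all genes were called in either direction. The fold change was negative for 72 of the 78, with a median of -0.13 against -0.0072 for all genes, and 26 members were lower at an unadjusted p under 0.05, where 7.52% of all genes were. With edgeR 0 were called, where 0.00603% of all genes were called lower. With DESeq2 3 were lower, where 1.81% of the genes it gave an adjusted p were. Of the markers, 4 of 4 of the olfactory bulb were positive with memantine (median 1.61), 5 of 5 of oligodendrocytes negative (median -0.47) and 3 of 4 of microglia negative (median -0.15), and their part in the result was not tested. After the length and GC correction the median was -0.047. All 6 memantine libraries lay below all vehicle libraries for 1 member, Mrpl14, where 0.917% of all genes did so.

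The 6 members with the smallest p had adjusted p-values of 0.113 to 0.145. Mrpl53, near the stalk of the large subunit, lay at 371 to 509 normalised counts (median 423) with vehicle and 314 to 402 (median 357) with memantine, with a fold change of -0.28 (SE 0.077, adjusted p = 0.113). Mrpl54, in the same region, lay at 255 to 349 normalised counts (median 286) with vehicle and 189 to 290.3 (median 219.9) with memantine, with a fold change of -0.39 (SE 0.12, adjusted p = 0.136). In each gene a single memantine library reached into the vehicle range and the other 5 lay below it. Mrpl53 shares most of its exon bases with a predicted gene on the same strand. Mrpl57 had a fold change of -0.27 (SE 0.08, adjusted p = 0.129) and Mrpl27 one of -0.25 (SE 0.076, adjusted p = 0.129). Mrps24 had one of -0.26 (SE 0.082, adjusted p = 0.139) and Mrpl13 one of -0.21 (SE 0.068, adjusted p = 0.145). Mrpl14 lay at 254 to 318 normalised counts (median 261) with vehicle and 186 to 253 (median 240.4) with memantine, and the highest memantine libraries almost touched the lowest vehicle libraries. Its fold change was -0.27 (SE 0.092, adjusted p = 0.169).

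The comparison of the combination with vehicle asks what both drugs do together. It shares the vehicle libraries with the comparisons above. Mrps12 alone fell, 1 of 78 members, where 0.404% of all genes fell. Mrps12 lay at 652 to 862 normalised counts (median 694) with vehicle and 460.4 to 598 (median 556) with the combination, without overlap, and changed by -0.37 (SE 0.078, adjusted p = 0.0427). The fold change was negative for 69 members, with a median of -0.16 against -0.00066 for all genes, and 35 were lower at an unadjusted p under 0.05, where 7.87% of all genes were. With edgeR 1 was lower, where 0.332% of all genes were. With DESeq2 13 were lower, where 2.39% of the genes it gave an adjusted p were. Of the microglial markers 4 of 4 had negative fold changes (median -0.35), 3 of them at an unadjusted p under 0.05 with limma, 0 after adjustment by limma or edgeR and 2 by DESeq2, and their sum was 3301 to 4060 against 3749 to 5071 with vehicle. Striatal (5 of 5, median 0.48), olfactory bulb (4 of 4, median 0.68) and choroid plexus markers (4 of 4, median 0.62) were positive and oligodendrocyte markers (5 of 5, median -0.27) negative. Their part in the result was not tested. For 1 member all combination libraries lay below all vehicle libraries, where 0.875% of all genes did so.

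The call of Mrps12 rested on single libraries: 0 members were called without any 1 of vehicle replicates 1, 3, 4 and 6, sarcosine replicates 3, 5 and 6, memantine replicates 1, 2 and 4 or combination replicates 2, 3, 5 and 6. Without combination replicate 1, which carries choroid plexus markers, 8 were called, and without vehicle replicate 5, 7, and without vehicle replicate 2, 2. The share of all genes called in these fits is not given here, so these counts are not read as a gain of the members. The next members by p were Mrpl55, at 351 to 421 normalised counts (median 388) with vehicle and 287 to 364 (median 322) with the combination and a fold change of -0.26 (SE 0.065, adjusted p = 0.0614), and Mrps24, at 424 to 559.9 normalised counts (median 497) with vehicle and 341 to 483 (median 401) with the combination and a fold change of -0.31 (SE 0.082, adjusted p = 0.0729). In each of them a single combination library, replicate 1, reached into the vehicle range. Mrps14, the counterpart of bacterial S14, had a fold change of -0.26 (SE 0.071, adjusted p = 0.0762). Mrps18a had one of -0.25 (SE 0.069, adjusted p = 0.0814) and Mrpl42 one of -0.25 (SE 0.068, adjusted p = 0.0819).

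When the combination was set against each single drug, which asks what adding the other drug does, no member passed. Against sarcosine 0 of 78 were called by limma, edgeR and DESeq2, where 0% of all genes were called by limma, and 3 were higher at an unadjusted p under 0.05, a share near the 3.59% of all genes. The median was 0.054, and 61 of 78 were positive. Mrpl41 lay at 562 to 649 normalised counts (median 625) with sarcosine and 623 to 882 (median 725) with the combination, and 4 of the 6 combination libraries lay above every sarcosine library. Its fold change was 0.23 (SE 0.07, adjusted p = 0.35). Mrpl14 had a fold change of 0.25 (SE 0.092, adjusted p = 0.436) and Mrpl33 one of 0.28 (SE 0.11, adjusted p = 0.452). Against memantine 0 of 78 were called by the same 3 tools, where 0.0543% of all genes were called by limma, and 6 were lower at an unadjusted p under 0.05, where 3.78% of all genes were, with a median of -0.011. Mrpl35 lay at 415 to 538 normalised counts (median 456) with memantine and 267 to 436 (median 380.4) with the combination, with combination replicate 3 far below the rest, and a fold change of -0.33 (SE 0.10, adjusted p = 0.306). Mrpl42 had a fold change of -0.21 (SE 0.068, adjusted p = 0.356) and Mrps25 one of -0.20 (SE 0.073, adjusted p = 0.421).

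The interaction asks whether the fold change of both drugs differs from the sum of the single ones. Mrpl14 alone passed, 1 of 78 members, in the positive direction, where 0.579% of all genes did so. Its counts lay at 254 to 318 (median 261) normalised counts in the vehicle group, 177 to 206 (median 198) in the sarcosine group, 186 to 253 (median 240.4) in the memantine group and 191 to 256 (median 237) in the combination group. Sarcosine libraries were low throughout, and the memantine and combination libraries spread from the sarcosine range up to the lowest vehicle libraries. The interaction was 0.51 (SE 0.13, adjusted p = 0.0454), where the fold changes against vehicle were -0.48 with sarcosine, -0.27 with memantine and -0.24 with both. Mrpl53 had an interaction of 0.38 (SE 0.11, adjusted p = 0.0648) and Mrpl41 one of 0.32 (SE 0.098, adjusted p = 0.0821). The interaction was positive for 76 of the 78 members, with a median of 0.18 against 0.012 for all genes. At an unadjusted p under 0.05, 27 were positive, where 7.91% of all genes were. The vehicle libraries enter the interaction with a plus sign and the fold changes against vehicle with a minus sign. These counts are therefore not independent of the comparisons with vehicle above. With edgeR 1 was called, where 0.621% of all genes were. With DESeq2 7 were called, where 3.07% of the genes it gave an adjusted p were. After the length and GC correction 0 were called and the median was 0.045. Leaving out 1 library at a time, Mrpl14 passed without vehicle replicate 2 or 5, sarcosine replicate 4 or combination replicate 6, and 0 members passed without any other single library. Without vehicle replicate 5, 2 members passed, without sarcosine replicate 4, 3, and without combination replicate 6, 7. The share of all genes that passed in these fits is not given here, so the counts are not read as a gain of the members.

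Some proteins of the mitochondrial ribosome have genes with other names. Of 5 such genes 2 fell with sarcosine, where 4.62% of all genes fell. Aurkaip1, a small subunit protein, lay at 845 to 1154 normalised counts (median 1051) with vehicle and 740.4 to 949.7 (median 784) with sarcosine, with a fold change of -0.37 (SE 0.07, adjusted p = 0.00239). Chchd1, also of the small subunit, lay at 305 to 385 normalised counts (median 323) with vehicle and 265 to 308 (median 278) with sarcosine, with a fold change of -0.25 (SE 0.065, adjusted p = 0.0156). For both genes the sarcosine and vehicle ranges overlapped. Gadd45gip1, a large subunit protein, did not pass, at -0.25 (SE 0.089, adjusted p = 0.0727). After the length and GC correction 0 of the 5 were lower.

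Genes that build or serve the ribosome passed the test in 1 case. Of 25 assembly factors limma, edgeR and DESeq2 called 0 with sarcosine, 2 were lower at an unadjusted p under 0.05, where 11.1% of all genes were, and the median was -0.10. The GTPase Mtg1 had a fold change of -0.24 (SE 0.091, adjusted p = 0.103) and the GTPase Mtg2 one of -0.28 (SE 0.11, adjusted p = 0.128). The rRNA methyltransferase Mrm3 had one of -0.15 (SE 0.077, adjusted p = 0.241). Of 14 translation factors the same tools called 0, 2 were lower at an unadjusted p under 0.05, against the same 11.1%, and the median was 0.010. The elongation factor Tsfm had a fold change of -0.21 (SE 0.075, adjusted p = 0.0873) and Gfm1 one of 0.13 (SE 0.065, adjusted p = 0.225). The recycling factor Mrrf had one of -0.17 (SE 0.08, adjusted p = 0.199). Of 20 mitochondrial tRNA synthetases and related enzymes 1 fell, a share near the 4.62% of all genes. This was Tars2, the threonyl-tRNA synthetase. It lay at 515 to 586 normalised counts (median 532) with vehicle and 421 to 505 (median 458) with sarcosine, without overlap, and its fold change of -0.25 (SE 0.065, adjusted p = 0.0175) became -0.27 after the length and GC correction (adjusted p = 0.0394). Ears2, the glutamyl-tRNA synthetase, had a fold change of 0.25 (SE 0.11, adjusted p = 0.171) and Gatb one of -0.16 (SE 0.077, adjusted p = 0.226).

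Lists of mitochondrial RNA handling and of the RNAs that the ribosome reads held no gene that passed with limma. Of 15 tested genes of mitochondrial transcription and RNA processing limma, edgeR and DESeq2 called 0, and the median was 0.030. At an unadjusted p under 0.05, 1 was lower and 2 were higher, where 11.1% and 11.2% of all genes were. Lrpprc, which stabilises mitochondrial mRNAs, had a fold change of 0.19 (SE 0.07, adjusted p = 0.0894) and the helicase Supv3l1 one of 0.19 (SE 0.083, adjusted p = 0.151). Hsd17b10, a subunit of mitochondrial RNase P, had one of -0.24 (SE 0.11, adjusted p = 0.161). Of 13 mitochondrially encoded mRNAs 8 passed the filter. Limma and edgeR called 0 of these with sarcosine. DESeq2 called 3 lower, where it called 7.32% of the genes it gave an adjusted p. At an unadjusted p under 0.05, 4 were lower, where 11.1% of all genes were. All 8 were negative and the median was -0.25. This was not particular to sarcosine: all 8 were also negative against vehicle with memantine (median -0.17) and with the combination (median -0.27). The fold change was -0.28 (SE 0.10, adjusted p = 0.0892) for mt-Nd4, -0.29 (SE 0.12, adjusted p = 0.136) for mt-Cytb and -0.27 (SE 0.12, adjusted p = 0.175) for mt-Nd1. The small ribosomal RNA mt-Rnr1 lay at 59379 to 84941 normalised counts with vehicle and 49726 to 62703 with sarcosine, with overlap at the edges. The large one, mt-Rnr2, lay at 92000.4 to 133293 and 77012.5 to 99659. With memantine mt-Rnr1 lay at 56490 to 73165 normalised counts and mt-Rnr2 at 81718 to 118641. With the combination they lay at 48654 to 63559 and 88627 to 112883.

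Motif content of the promoters was set beside the sarcosine calls as a description. Of 26 members that fell and had a promoter sequence 14 held an ETS match (53.8%), 2 an NRF1 match (7.69%) and 3 a YY1 match (11.5%). Of 43 members that did not pass, 11 held an ETS match (25.6%), 8 an NRF1 match (18.6%) and 5 a YY1 match (11.6%). Mrps12 and Mrps18a above are examples of the first kind, and Mrps18b, with the highest fold change, holds both an ETS and an NRF1 match.

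For some members reads of a neighbour may be counted in, or reads in shared bases may be left out of the count. In the GENCODE vM21 annotation 33 members share exon bases with another gene, and for 17 these are at least 10% of the member's exon bases. Mrps25 shares 69.8% with Nr2c2 on the opposite strand. Mrps34 shares 63.4% with Mapk8ip3 on the opposite strand and 37.0% with Nme3 on the same strand. Mrpl53 shares 88.0% with the predicted gene Gm42688 on the same strand and Mrpl43 33.4% with Twnk. Mrps18b shares 30.5% with an antisense gene, Mrps24 15.4% with Urgcp, Mrpl12 13.1% with an antisense gene and Mrpl14 11.2% with Tmem63b. The setting of strand in the counting was not given in the sources used here, so for these members the part of a neighbour in the count was not tested.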

How the data were processed

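Normalised counts per gene were analysed for 24 frontal cortex libraries, 6 in each of 4 groups taken from the labels. The deposited table holds a signal whose values are whole multiples of a single number in each library, as gene counts divided by a size factor are. FastQC, STAR, featureCounts 1.6.0, DESeq, DESeq2 1.42.1 and the mouse build mm39 are named per the submitters' processing notes, without roles or order, and strand and annotation settings are not given in the sources used here. The values gave back whole reads within 0.01 for 100% of entries, 12678114 to 21844579 reads per library.

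Genes reaching a value of 10 in 6 or more libraries were tested with limma 3.58.1 in R 4.3.3 on log2(value + 1), with a mean-variance trend, 4 group means over all 24 libraries and two-sided p-values adjusted by Benjamini-Hochberg over 16578 genes. Fold changes are on that scale, which understates those of low genes. Reads were also tested with edgeR 4.0.16 and DESeq2 1.42.0. The labels do not say more of the animals behind the libraries, so p-values measure the spread between these samples. A loess trend (span 0.3) on length and GC content of the longest GENCODE vM21 transcript was removed in an alternative for 16287 genes (98.2%). That annotation is of another build, and no coordinates of it are printed. Promoters came from RefSeq.

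The members, lists, named genes and tests were chosen with earlier results of these data known. The text names, with values by group or the fold change with its error and p, or the level per length, the 12 members with the smallest p and the 6 with the highest fold change with sarcosine, the 6 with the smallest p in memantine and combination against vehicle, the 3 in each further comparison, the 3 highest and lowest per length, Mrpl12, Mrpl58, Mrps30, Mrps18a, Mrps18b, Mrps18c and Mrps36, and up to 3 genes of each list.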

Additional observations from a re-analysis of the deposited data

Results flagged for a closer look

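Single libraries stood apart within their group of 6 for 10 values of members, by the gap to the nearest library over the range of the group. Chance gives about 1 such case in 20 groups, and 11 of 136 groups examined had one. Vehicle replicate 1 was the high library for Mrpl14 at 318 normalised counts, Mrpl35 at 567 and Mrps12 at 862. Sarcosine replicate 2 was high for Mrpl35 at 459. Memantine replicate 1 was high for Mrpl41 at 728 and memantine replicate 5 for Mrps24 at 476. Combination replicate 1, which carries choroid plexus markers, was high for Mrps18c at 155. Low libraries were vehicle replicate 5 for Mrpl41 at 666, combination replicate 6 for Mrpl58 at 513 and combination replicate 3 for Mrps12 at 460.4. The median deviation over all members was lowest in memantine replicate 3, which also carries choroid plexus markers, at -0.087 on the log2 scale.

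The fold change of Mrpl14 with both drugs differed from the sum of the single ones, with an interaction of 0.51 (SE 0.13, adjusted p = 0.0454) by limma. That call was lost in 20 of the 24 fits that left out 1 library, with no filter on low values, with the replicate block, under both length corrections, with marker covariates and under both marker limits.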

How the results depend on the processing

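With sarcosine the members called were 4 under the length and GC correction and 4 with the replicate block added to it (medians -0.092 and -0.092), 3 under the coding length correction (-0.062), 6 with marker scores as covariates, 43 with library weights and 17 with only the groups compared. With memantine the median was -0.047 under the length and GC correction, -0.047 with the block added and -0.027 under the coding length correction, and library weights called 1 member and DESeq2 3. With the combination 0 were called with no filter, the replicate block, either length correction, the block with length, marker covariates or only the groups compared, 2 with a stricter filter, 7 with library weights, 13 with DESeq2, 9 under the choroid plexus limit and 3 under the cortical limit. Against sarcosine the median of the combination was -0.014 under the coding length correction. The interaction called 0 with no filter, the block, the length correction (median 0.045), the block with length (0.045), marker covariates, the coding length correction (0.019) and both marker limits, 2 with the stricter filter, 7 with upper-quartile scaling (median 0.26, with all genes at 0.088), 10 with library weights and 7 with DESeq2. Only the groups compared gives no interaction. In all other settings these counts stayed within 1.5 times. The counts here and in the leave-outs below are of members only. A setting can change the number called among all genes too, and that share is not given beside them. A higher or lower count is therefore not read as a result about the members. For single named genes, 70 values lost their call and 37 gained one under other settings, and 51 lost and 17 gained one when a library was left out.

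Leaving out 1 library at a time, 20 to 34 members were called with sarcosine (median -0.24 to -0.19), 0 to 8 with the combination and 0 to 7 in the interaction, and 0 in the remaining comparisons. Mrpl41 reversed with sarcosine under the coding length correction, at 0.041 (adjusted p = 0.961 by limma). The cause was not tested. Same-numbered libraries correlated over 0.1 in 5 of 6 pairs between vehicle and memantine (-0.28 to 0.66) and between sarcosine and the combination (0.043 to 0.73), in 1 of 6 between vehicle and sarcosine (-0.57 to 0.54) and in 2 or 3 of 6 between the other groups. In no comparison were all 6 over 0.1, and at best 2 of 6 samples correlated best with their own number, so the numbers were not taken to pair samples. With the replicate number as a block 28 members were called with sarcosine. The coding length correction and the 2 marker limits were chosen after seeing the data.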
